A study of Mus musculus with 6 samples.

Results

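The AP-1 transcription factors described here are 10 genes, *Fos*, *Fosb*, *Fosl1*, *Fosl2*, *Jun*, *Junb*, *Jund*, *Atf3*, *Maff* and *Batf3*, taken as a family by name from the 20327 gene symbols of the tag-count files, with earlier results of these data known. Their RNA was compared between EGFP+ (IL-11+) and EGFP- (IL-11-) stromal cells sorted from the inflamed mouse colon, named IL-11+ and IL-11- fibroblasts following the study. Of these 10 genes, 9 were abundant enough to be tested, among 9334 tested genes in all. Both groups came from C57BL/6 mice with the *Il11-Egfp* reporter, a bacterial artificial chromosome in which *Egfp* is read from the *Il11* promoter. The mice were 9 to 15 weeks old, drank 1.5% dextran sulfate sodium (DSS), which injures the colonic epithelium, for 5 days and then plain water, and were used on day 7. Colons were digested with Liberase for 60 min, and live (DAPI-negative) cells without Ter119, CD45, CD31 and EpCAM were sorted by EGFP, which leaves 3 libraries per group from 3 mice. The sort used no positive fibroblast marker, untreated mice were not part of the comparison, and according to the methods the EGFP+ fraction was not wholly pure. EGFP reports transcription from a transgene, so the groups are defined by reporter signal and not by IL-11 protein.

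AP-1 is a dimer of basic leucine zipper proteins in which FOS proteins pair with JUN proteins, JUN proteins can also pair with each other, and ATF, MAF and BATF relatives join with some of them. The dimers bind short palindromic DNA elements, and many of the genes are immediate early genes that MAP kinase signalling, growth factors, cytokines and cell stress switch on within minutes. In fibroblasts AP-1 is known for driving matrix metalloproteinase and cytokine genes. The study asked how *Il11* is induced in colitis and looked at the ERK kinases, which act upstream of AP-1, so the comparison addresses which AP-1 genes differ in RNA level between cells with and without *Il11* reporter activity.

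Libraries were made by 5′Tag-seq, which reads tags from the 5′ side of polyadenylated RNA, and each held between 1022851 and 1169817 tags. A count of 3 tags, taken as the floor, stood at 2.56 to 2.93 CPM, and this floor covers counting error only. Levels are given as normalized CPM, CPM after scaling by edgeR's TMM method, which corrects for shifts in RNA composition. *Il11*, the gene behind the reporter, checked the labels. It was at 26.7, 48.1 and 73.1 normalized CPM in IL-11- replicates 1, 2 and 3 and at 1438, 743.2 and 2535 in IL-11+ replicates 1, 2 and 3. Its IL-11+ libraries all stood above its IL-11- libraries, although tags of the reporter transcript can be part of these counts.

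Some AP-1 genes were lower in IL-11+ fibroblasts, for others a difference was not shown, and none was called higher. Calls required an adjusted p under 0.05 by edgeR's quasi-likelihood test after Benjamini-Hochberg adjustment together with a fold change over 2, and 9.81% of all tested genes met this in either direction. Of the 9 tested AP-1 genes, 2 were called lower (*Junb* and *Atf3*), against 6.37% of all tested genes called lower. None was called higher (0 of 9, against 3.44% of all tested genes), and 0 were higher at an unadjusted p under 0.05 by edgeR or called higher by DESeq2. By the adjusted p alone, without the fold threshold, 6 were lower (*Fos*, *Fosb*, *Junb*, *Jund*, *Atf3* and *Maff*), where 8.7% of all tested genes were. The same 6 genes had all 3 IL-11+ libraries below all 3 IL-11- libraries, which held for 16.7% of all tested genes. The median log2 fold change of the 9 tested AP-1 genes was -0.70 and that of all tested genes -0.01. Each of the 9 had at least 49 tags in every library, so none passed the filter on low counts through a single group. Together the 10 genes took 1.75%, 1.85% and 1.42% of the tags in the IL-11- libraries, against 0.883%, 1.02% and 0.89% in the IL-11+ libraries, in order of replicate. The share was lower in each IL-11+ library than in any IL-11- library. In such bulk libraries, fewer cells of a type and less RNA per cell cannot be told apart.

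The cell types in the IL-11- and IL-11+ fractions were not alike by their markers. Of 11 fibroblast markers, 2 were called higher (*Col3a1* and *Pdpn*) and 0 lower, and 0 were called lower by DESeq2, while 1 was lower at an unadjusted p under 0.05 by edgeR. That marker, *Lum*, was also lower by adjusted p alone (log2 fold change -0.63, adjusted p = 0.0378 by edgeR's quasi-likelihood test after Benjamini-Hochberg adjustment) without overlap of the groups, and 4 markers were higher by that rule. Their summed level was 23840, 23850 and 26660 normalized CPM in IL-11- replicates 1, 2 and 3 and 44000, 35940 and 31810 in IL-11+ replicates 1, 2 and 3, with *Dcn* the most abundant, so fibroblast RNA was plentiful in both groups. Of 11 smooth muscle and pericyte markers, 10 were called lower in IL-11+ fibroblasts. Their sum was 4704, 5041 and 5695 normalized CPM in IL-11- and 535.2, 541.2 and 667.6 in IL-11+ replicates 1, 2 and 3, with *Rgs5* the most abundant. The sum of these mural markers, which the sort does not remove, was thus much higher in each IL-11- library, and none of the 11 was at 0 in all IL-11+ libraries. *Kcnj8*, a pericyte marker, went the other way and was higher by adjusted p alone (log2 fold change 0.71, adjusted p = 0.0394 by edgeR's quasi-likelihood test after Benjamini-Hochberg adjustment). Among markers of interstitial cells of Cajal and mesothelium, the 3 tested ones (*Kit*, *Ano1* and *Etv1*, all of interstitial cells) were called lower, and the 6 markers summed to 275.0, 167.7 and 268.5 in IL-11- and 21.2, 20.3 and 50.5 normalized CPM in IL-11+ replicates 1, 2 and 3, *Ano1* most abundant and *Msln*, *Upk3b* and *Lrrn4* at 0 in all IL-11+ libraries. The interstitial cell markers were thus higher in each IL-11- library as well, and no mesothelial marker was tested. *Kit*, *Ano1* and the mural markers *Actg2*, *Des*, *Cnn1* and *Notch3* met the filter on low counts by the IL-11- group alone, where they were higher. Their calls are given as a description only, and the sums do not depend on the filter. The part of these other cell types in the AP-1 results was not tested.

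Among cell types that the sort removes, epithelial markers were low in both groups, and hemoglobin tags remained in most libraries. The 6 endothelial markers summed to 43.0, 27.3 and 37.8 in IL-11- and 18.0, 8.12 and 6.68 normalized CPM in IL-11+ replicates 1, 2 and 3. Most of this was *Tek*, the only one tested, which was called lower, and *Pecam1*, *Emcn* and *Lyve1* were at 0 in all IL-11+ libraries. The 9 hematopoietic markers summed to 29.6, 23.6 and 21.4 in IL-11- and 65.7, 49.8 and 16.2 in IL-11+ replicates 1, 2 and 3, of which *Cd14*, the only one tested and called higher, was the most abundant and *Cd3e* was at 0 in all IL-11+ libraries. The 7 epithelial markers summed to at most 18.9 normalized CPM, reached in IL-11- replicate 3, with *Krt8* most abundant over the 6 libraries, none tested, and *Krt19* and *Krt20* at 0 in all IL-11+ libraries. Erythroid markers, none of them tested, did differ between libraries, with sums of 90.7, 0 and 305.5 in IL-11- and 19.1, 2.03 and 19.1 in IL-11+ replicates 1, 2 and 3, with *Hbb-bs* the most abundant over the 6 libraries and *Alas2* at 0 in all IL-11+ libraries. The red-cell sum was thus highest in IL-11- replicate 3.

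*Fos* encodes c-FOS, the prototype of the FOS family, which cannot pair with itself and binds DNA only with a JUN-type partner. It was at 5018, 5305 and 4191 normalized CPM in IL-11- replicates 1, 2 and 3 and at 2497, 2731 and 2265 in IL-11+ replicates 1, 2 and 3. All IL-11+ libraries stood below all IL-11- libraries. The means were 4838 ± 579 and 2498 ± 233 (SD, n = 3), 1.94-fold lower in IL-11+, with log2 fold change -0.95 (SE 0.177, adjusted p = 0.000826 by edgeR's quasi-likelihood test after Benjamini-Hochberg adjustment). *Fos* thus passed the adjusted p and stayed just short of the fold threshold. It crossed that threshold when IL-11- replicate 3 or IL-11+ replicate 2 was left out, with log2 fold changes of -1.07 and -1.02, and when counts were scaled by library size only (-1.03). *Fosb*, whose product acts in the same dimers, was at 4546, 4802 and 3390 normalized CPM in IL-11- and at 2117, 2401 and 1973 in IL-11+ replicates 1, 2 and 3. It showed the same separation, its log2 fold change being -0.97 (SE 0.184, adjusted p = 0.00102 by edgeR's quasi-likelihood test after Benjamini-Hochberg adjustment), and it crossed the fold threshold in the same 3 fits (-1.13 without IL-11- replicate 3, -1.05 without IL-11+ replicate 2 and -1.05 with library size only) and with 10 tags required in all libraries (-1.01).

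*Fosl1* encodes FRA-1, a FOS protein without the strong activation domain of c-FOS that the study's earlier work tied to *Il11* induction downstream of ERK. It was at 46.8, 50.9 and 51.7 normalized CPM in IL-11- replicates 1, 2 and 3 and at 85.9, 53.8 and 46.7 in IL-11+ replicates 1, 2 and 3. The groups overlapped. IL-11+ replicate 1 stood well above the other libraries and IL-11+ replicate 2 slightly above all IL-11- libraries. IL-11+ replicate 3 was level with IL-11- replicate 1, both at 49 tags. The log2 fold change was 0.31 (SE 0.232, 95% interval -0.18 to 0.80, adjusted p = 0.44 by edgeR's quasi-likelihood test after Benjamini-Hochberg adjustment), so a difference was not shown, and the interval ends below the fold threshold. Without IL-11+ replicate 1 the log2 fold change was 0.02. *Fosl2*, which encodes the related FRA-2, was at 232.0, 258.2 and 404.8 normalized CPM in IL-11- and at 183.4, 193.9 and 268.0 in IL-11+ replicates 1, 2 and 3. Replicate 3 was the highest of both groups, and IL-11+ replicate 3 lay within the IL-11- range. The log2 fold change was -0.47 (SE 0.211), and the adjusted p by edgeR's quasi-likelihood test after Benjamini-Hochberg adjustment was 0.155, or 0.0202 when replicate number entered the model as a block. Leaving out a library moved the log2 fold change between -0.66 (without IL-11+ replicate 3) and -0.205 (without IL-11- replicate 3), with no adjusted p under 0.05. The block left the calls with the fold threshold at *Junb* and *Atf3* (2 lower, against 6.94% of all tested genes) and 0 higher (against 3.61%, with 0 at an unadjusted p under 0.05 by edgeR without the block and 0 by DESeq2). With the block, *Fosl2* joined the 6 genes that were lower by adjusted p alone, which made 7 of 9, where 11.2% of all tested genes were lower under that rule.

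*Jun* encodes c-JUN, the strongest activator of the JUN family and a partner of all FOS proteins. It was at 4292, 4356 and 2706 normalized CPM in IL-11- replicates 1, 2 and 3 and at 3411, 3432 and 2873 in IL-11+ replicates 1, 2 and 3. The groups overlapped, because IL-11- replicate 3 was the lowest of all 6 libraries and the other IL-11- replicates were the highest. The log2 fold change was -0.22 (SE 0.198, 95% interval -0.64 to 0.19, adjusted p = 0.519 by edgeR's quasi-likelihood test after Benjamini-Hochberg adjustment), and it was -0.43 without IL-11- replicate 3. *Junb* encodes a JUN protein that activates more weakly than c-JUN and can oppose it. It was at 1373, 1532 and 1297 normalized CPM in IL-11- and at 676.2, 726.0 and 680.0 in IL-11+ replicates 1, 2 and 3. The IL-11+ libraries were close to each other, and all lay well under the IL-11- libraries. *Junb* was called lower, with means of 1401 ± 120 and 694 ± 27.7 (SD, n = 3), 2.02-fold lower, with log2 fold change -1.01 (SE 0.162, 95% interval -1.35 to -0.67, adjusted p = 0.000208 by edgeR's quasi-likelihood test after Benjamini-Hochberg adjustment). The fold stood just past the threshold, so the call was lost without IL-11- replicate 2 (-0.96), IL-11+ replicate 1 (-0.98) or IL-11+ replicate 3 (-0.99) and without a filter on low counts (-0.97), with the adjusted p under 0.05 in each. *Jund*, the JUN gene known for steady expression in resting cells, was at 744.7, 793.3 and 678.2 normalized CPM in IL-11- and at 400.6, 506.6 and 455.8 in IL-11+ replicates 1, 2 and 3. Its groups did not overlap, and its log2 fold change of -0.70 (SE 0.164, adjusted p = 0.00582 by edgeR's quasi-likelihood test after Benjamini-Hochberg adjustment) was short of the fold threshold.

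*Atf3* encodes a stress-induced ATF protein that pairs with JUN proteins and represses many of its targets as a homodimer. Its log2 fold change was the lowest of the 9 tested genes. It was at 1100, 1401 and 640.5 normalized CPM in IL-11- replicates 1, 2 and 3 and at 232.1, 307.6 and 147.8 in IL-11+ replicates 1, 2 and 3. All IL-11+ libraries lay far below all IL-11- libraries, and in both groups replicate 2 was the highest and replicate 3 the lowest. The means were 1047 ± 383 and 229.2 ± 80.0 (SD, n = 3), 4.57-fold lower, with log2 fold change -2.19 (SE 0.27, 95% interval -2.76 to -1.63, adjusted p = 1.27e-05 by edgeR's quasi-likelihood test after Benjamini-Hochberg adjustment). *Maff* encodes a small MAF protein without an activation domain of its own, and was at 259.7, 310.0 and 252.9 normalized CPM in IL-11- and at 188.7, 194.9 and 190.7 in IL-11+ replicates 1, 2 and 3. Its IL-11+ libraries were nearly equal and all below the IL-11- libraries. The log2 fold change was -0.52 (SE 0.161, adjusted p = 0.035 by edgeR's quasi-likelihood test after Benjamini-Hochberg adjustment), and the adjusted p was under 0.05 in only 1 of 6 fits with a library removed, the one without IL-11- replicate 3, and ran up to 0.172 without IL-11- replicate 2. *Batf3*, known from dendritic cell development, was counted with 3, 1 and 5 tags in the IL-11- libraries and with 4, 4 and 1 in the IL-11+ libraries, in order of replicate. It stood near the floor of 3 tags in every library, and a difference was not detectable at this depth.

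**Figure D1:**
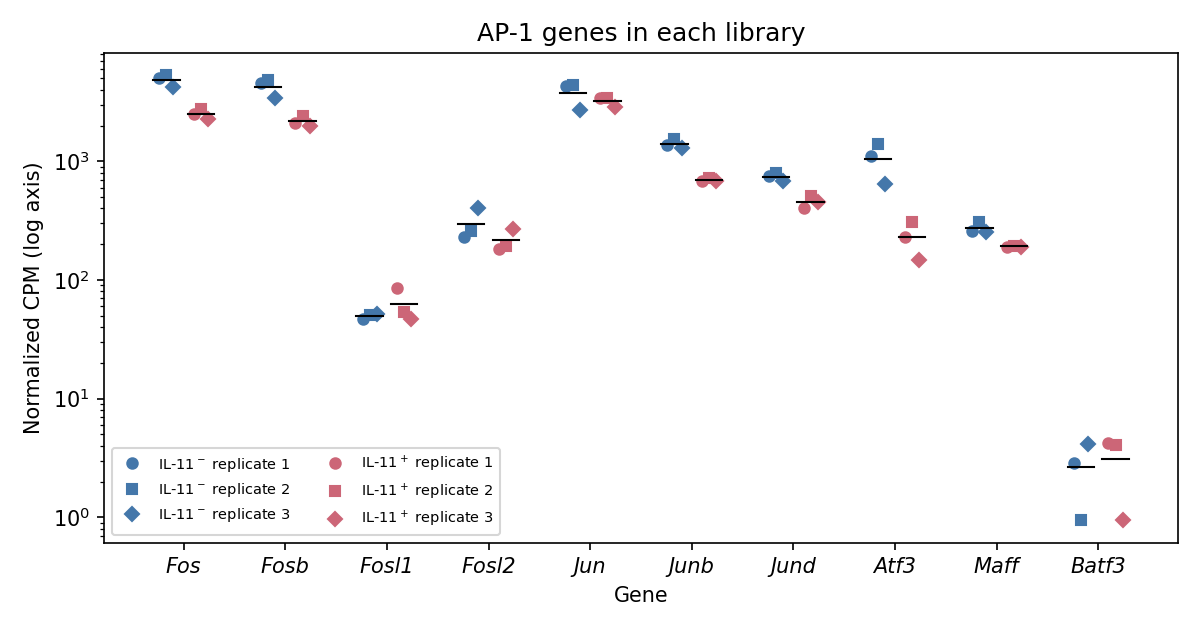
Level of each AP-1 gene in each library, in normalized CPM on a log axis, with IL-11- libraries in blue, IL-11+ libraries in red, symbols for the replicate number and a black line at the mean of each group. *Fos*, *Fosb*, *Junb*, *Jund*, *Atf3* and *Maff* have all IL-11+ points below all IL-11- points, and levels are to be compared within a gene only.

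**Figure D2:**
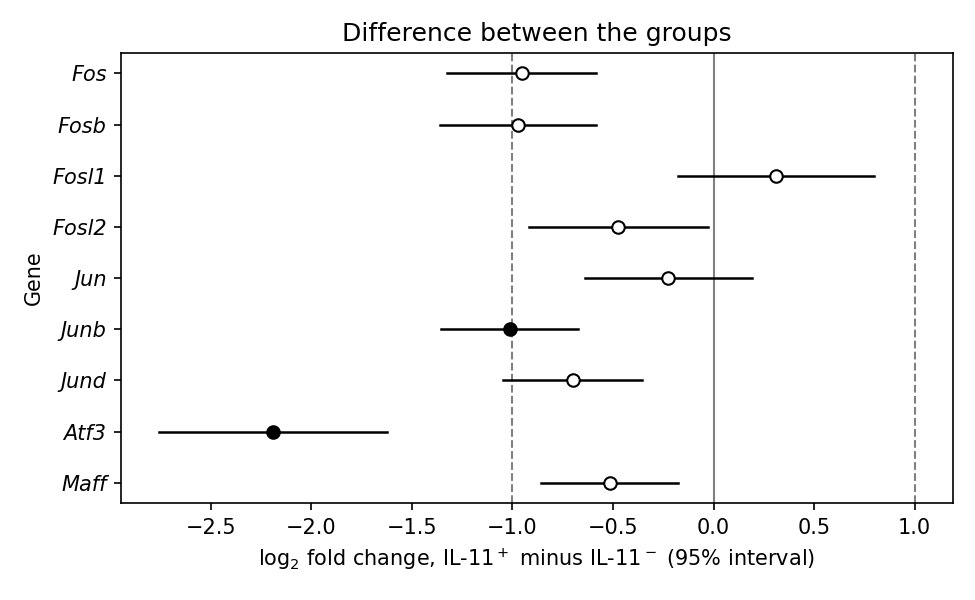
Log2 fold change (IL-11+ minus IL-11-) of the 9 tested AP-1 genes with its 95% interval from the edgeR fit, n = 3 libraries per group. Filled circles mark *Junb* (-1.01) and *Atf3* (-2.19), the genes called lower, the solid line marks no difference and the dashed lines the 2-fold thresholds.

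Within replicate numbers, the difference between IL-11+ and IL-11- libraries was below 0 in all 3 pairs for 7 of the 9 tested genes, which held for 25.3% of all tested genes. For *Atf3* the log2 differences were -2.25, -2.19 and -2.12 in replicates 1, 2 and 3. For *Junb* they were -1.02, -1.08 and -0.93. These pairs were alike, whereas *Fosl1* gave 0.88, 0.08 and -0.15 and *Jun* -0.33, -0.34 and 0.09. The signs of *Fosl1* and *Jun* thus differed between pairs.

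Ratios of tags within a library do not depend on the scaling between libraries, and 9 of them were compared by exact permutation tests, for which 0.1 (two-sided) is the smallest p that 3 against 3 libraries allow. No ratio could thus reach 0.05, and the pairs of genes were chosen after their values were seen, so the ratios describe the libraries and test nothing new. The log2 ratio of *Jun* to *Junb* tags was 1.64, 1.51 and 1.06 in IL-11- and 2.34, 2.24 and 2.08 in IL-11+ replicates 1, 2 and 3. It was higher in every IL-11+ library, by 0.81 on average (exact permutation p = 0.1, Benjamini-Hochberg adjusted 0.15 over the 9 ratios). The log2 ratio of *Fos* to *Jun* was 0.23, 0.29 and 0.63 in IL-11- and -0.45, -0.33 and -0.34 in IL-11+ replicates 1, 2 and 3. *Fos* tags outnumbered *Jun* tags in each IL-11- library and the reverse held in each IL-11+ library, a difference of -0.76 (exact permutation p = 0.1, adjusted 0.15). The same p was given by the ratios of *Jun* to *Jund*, which differed by 0.51, *Fosl1* to *Fos*, by 1.22, *Atf3* to *Fos*, by -1.23, and *Atf3* to *Jun*, by -1.99, all without overlap of the groups. *Fos* and *Fosb* moved side by side, with a log2 ratio of 0.14, 0.14 and 0.31 in IL-11- and 0.24, 0.19 and 0.20 in IL-11+ replicates 1, 2 and 3 (difference 0.01, exact permutation p = 1, adjusted 1). *Fos* to *Junb* differed by 0.06 (exact permutation p = 0.5, adjusted 0.562) and *Fosl2* to *Fos* by 0.50 (exact permutation p = 0.3, adjusted 0.386), and both overlapped between the groups, although each was higher in the IL-11+ library of every replicate number, a pairing these tests do not use. Among JUN tags, the share of *Jun* was 67.0%, 65.2% and 57.8% in IL-11- and 76.0%, 73.6% and 71.7% in IL-11+ replicates 1, 2 and 3. The JUN tags of IL-11+ libraries were thus more often *Jun* in each replicate.

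**Figure D3:**
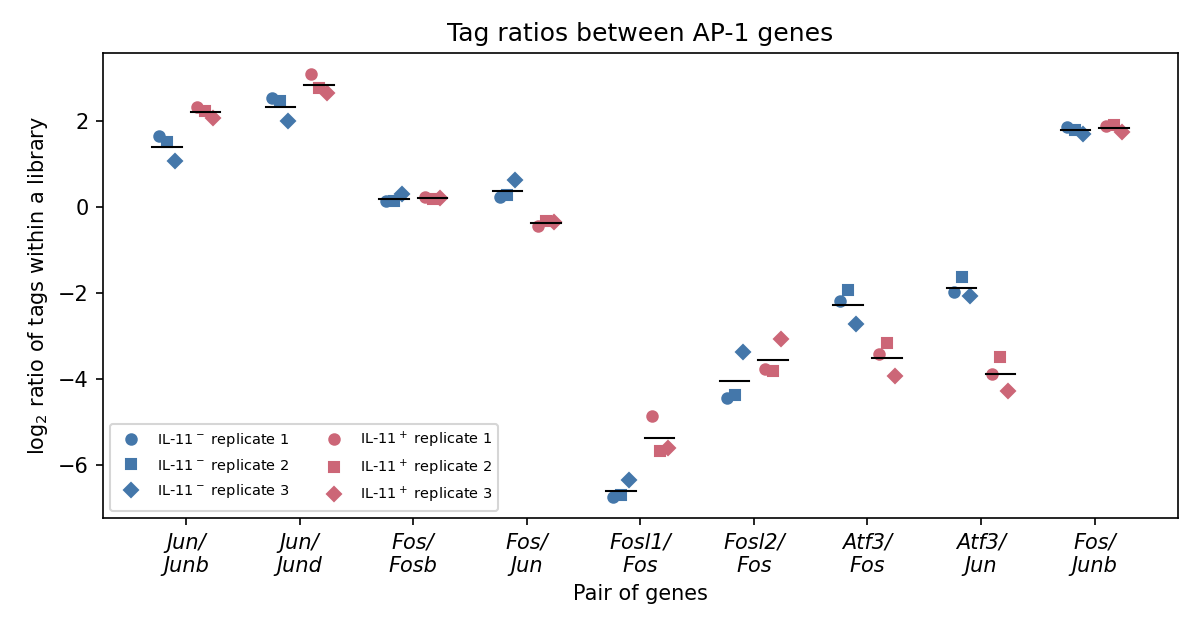
Log2 ratio of tags of the first-named to the second-named gene within each library, for 9 pairs of AP-1 genes, with IL-11- libraries in blue, IL-11+ libraries in red, symbols for the replicate number and a black line at the mean of each group. *Jun* to *Junb* is 0.81 higher and *Atf3* to *Jun* 1.99 lower in IL-11+ libraries, while *Fos* to *Fosb* differs by 0.01.

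The tested genes most like *Junb* and *Atf3* were found by the root mean square difference of centred log2 normalized CPM over the 6 libraries, with a prior count of 2 that draws low genes towards their mean. For *Junb* they were *Gabra3* (0.0679), *Mfge8* (0.0732) and *Fos* (0.0805). For *Atf3* they were *Itga11* (0.111), *Fam71a* (0.157) and *Abca8a* (0.193). Without the prior count, an alternative chosen after seeing the data, *Abca8a* came first for *Atf3* (0.192), followed by *Hoxb4* (0.23) and *Tril* (0.263). *Fam71a* stood at 0.285 and *Itga11* at 0.606, in place 137. *Rftn2* (0.0659) came first for *Junb*. *Mfge8* (0.0703) and *Fos* (0.0808) remained among the 3 genes most like *Junb*, and *Gabra3* (0.0808) came next. The rank of *Itga11* thus came with the prior count. *Itga11* and *Fam71a* are low genes, with 24, 30 and 17 tags for *Itga11* and 28, 31 and 13 for *Fam71a* in the IL-11- libraries, and 3, 5 and 1 and 4, 6 and 2 in the IL-11+ libraries, in order of replicate. *Fam71a* (chromosome 1, 191162584 to 191164817 in GRCm38) and *Atf3* lie on the same strand, with 5478 bases between the 3′ end of *Atf3* and the start of *Fam71a*. Whether the tags of *Fam71a* come from its own transcripts was not tested.

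Few other basic leucine zipper genes were called with the fold threshold, and whether their share differed from that of genes at large was not tested. Of 21 tested relatives of AP-1, 0 were called higher and 1 lower by edgeR (against 3.44% and 6.37% of all tested genes), and at an unadjusted p under 0.05 there were 1 and 5, while DESeq2 called 0 higher and 1 lower. The gene called lower was *Creb5*, which encodes a CRE-binding protein, at 109.8, 139.4 and 91.1 normalized CPM in IL-11- and 28.6, 56.9 and 50.5 in IL-11+ replicates 1, 2 and 3, without overlap (log2 fold change -1.31, SE 0.234, adjusted p = 0.000596 by edgeR's quasi-likelihood test after Benjamini-Hochberg adjustment). By adjusted p alone *Atf7*, *Maf*, *Mafk* and *Ddit3* were also lower and *Nfe2l2* was higher, named after their values were seen, which makes 5 of 21 lower and 1 higher where 8.7% and 6.84% of all tested genes were. The median log2 fold change of the 21 genes was 0.02. Without IL-11- replicate 3 or IL-11+ replicate 1, or with scaling by library size only, 2 of these genes were called.

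Few kinases upstream of AP-1 were called at the RNA level, as was true of genes at large (9.81% called in either direction), and RNA says nothing of their phosphorylation. Of 24 tested MAP kinases and kinases acting on them, 1 was called higher and 0 lower by edgeR, with 1 higher and 3 lower at an unadjusted p under 0.05 and none called by DESeq2. *Mapk7*, which encodes ERK5, was counted with 10, 5 and 9 tags in the IL-11- libraries and 18, 17 and 15 in the IL-11+ libraries, in order of replicate and without overlap (log2 fold change 1.21, SE 0.393, adjusted p = 0.0436 by edgeR's quasi-likelihood test after Benjamini-Hochberg adjustment). The call was lost when IL-11- replicate 2 or 3 or IL-11+ replicate 1 or 2 was left out. *Mapk7* passed the filter on low counts through the IL-11+ group, where it was higher, so this call is given as a description only. *Mapk3*, an ERK gene named because the study examined ERK, was not called (log2 fold change 0.11, SE 0.204, adjusted p = 0.793 by edgeR's quasi-likelihood test after Benjamini-Hochberg adjustment). A further list held SRF with its partners and coactivators, which drive *Fos* transcription, and ribosomal S6 kinase genes, of which only *Rps6ka3* was tested. Of its 6 tested genes, 0 were called in either direction by edgeR and by DESeq2, with 1 higher and 2 lower at an unadjusted p under 0.05. *Elk4*, a ternary complex factor, was higher by adjusted p alone and without overlap (log2 fold change 0.59, adjusted p = 0.0273 by edgeR's quasi-likelihood test after Benjamini-Hochberg adjustment). With the replicate number as a block *Mkl1*, an SRF coactivator, was called lower, with an adjusted p of 0.0112 against 0.101 without the block by edgeR's quasi-likelihood test after Benjamini-Hochberg adjustment.

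Of the genes that textbooks list as AP-1 targets, more were called higher than lower, and others were not called. Of 23 tested targets, 12 were called higher and 1 lower (against 3.44% and 6.37% of all tested genes), with a median log2 fold change of 1.05 against -0.01 over all tested genes. The 12 include *Il11*, whose promoter drives the reporter used for sorting, and several others were named by the study from these libraries, so the direction of the list is not independent evidence. They also include *Spp1*, with 1, 0 and 0 tags in the IL-11- libraries and 203, 27 and 29 in the IL-11+ libraries, in order of replicate. *Spp1* passed the filter on low counts only through the IL-11+ group, where it was higher, so its call is given as a description only. *Mmp10* and *Mmp13*, which encode a stromelysin and a collagenase, had log2 fold changes of 5.00 (SE 0.306) and 4.75 (SE 0.335), and *Mmp3*, for another stromelysin, 3.39 (SE 0.286). *Mmp3* was at 249.2, 185.6 and 278.4 normalized CPM in IL-11- and at 3724, 1397 and 2391 in IL-11+ replicates 1, 2 and 3. For these 3 genes, and for *Il11* (4.98, SE 0.393), all IL-11+ libraries stood above all IL-11- libraries. Of the 50-nt windows at the 5′ end of *Mmp10* transcripts, 12.4% are found in *Mmp3* too, and tags from them cannot be assigned by sequence alone. *Ccnd1*, which encodes cyclin D1, was called lower (-1.92, SE 0.458), with 15, 27 and 18 tags in the IL-11- libraries and 2, 6 and 6 in the IL-11+ libraries. It passed the filter on low counts only through the IL-11- group, where it was higher, so this call is given as a description only. *Hmox1* was called higher only with the block, with an adjusted p of 1.81e-07 against 0.101 without it by edgeR's quasi-likelihood test after Benjamini-Hochberg adjustment, and its replicate 2 was the lowest of both groups. Whether any of these targets was bound by AP-1 in these cells was not tested.

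A list of immediate early genes outside AP-1, which share rapid induction with *Fos*, and of heat shock and other genes that respond to tissue digestion held genes that were more often called lower than higher. Of 30 tested genes, 1 was called higher and 7 lower (against 3.44% and 6.37% of all tested genes), and by adjusted p alone 3 were higher (*Ier3*, *Nr4a2* and *Nfkbia*) and 16 lower, where 6.84% of all tested genes were higher and 8.7% lower by that rule. Their median log2 fold change was -0.59. *Gadd45g*, a stress-response gene, was at 636.9, 659.5 and 569.9 normalized CPM in IL-11- and at 203.5, 203.1 and 170.7 in IL-11+ replicates 1, 2 and 3 (log2 fold change -1.69, SE 0.167). *Klf4* (-1.37, SE 0.185), *Btg2* (-1.25, SE 0.178) and *Zfp36* (-1.16, SE 0.177), which encode a zinc finger factor, an antiproliferative protein and an mRNA decay factor, were lower without overlap of the groups. For *Zfp36*, 12.2% of the 5′ windows also occur in other annotated transcripts. *Ier3*, an immediate early gene of cell survival, went the other way, at 684.6, 530.4 and 456.5 normalized CPM in IL-11- and at 1703, 1273 and 1801 in IL-11+ replicates 1, 2 and 3 (1.52, SE 0.194). The direction within the list was therefore not uniform. Both groups had the same 60 min digestion, and its part in the levels of AP-1 genes and of this list was not tested.

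In the GENCODE annotation of GRCm38 all 10 genes are protein-coding, and *Jun* (chromosome 4, 95049034 to 95052222), *Junb* (chromosome 8, 84974484 to 84978718) and *Jund* (chromosome 8, 70698949 to 70700616) have 1 exon each. *Fos* (chromosome 12, 85473890 to 85477273), *Fosb* (chromosome 7, 19302696 to 19310051), *Fosl1* (chromosome 19, 5447547 to 5455946), *Fosl2* (chromosome 5, 32135801 to 32157842) and *Atf3* (chromosome 1, 191170296 to 191218039) have 4 exons each. *Maff* (chromosome 15, 79346621 to 79359076) and *Batf3* (chromosome 1, 191097847 to 191108945) have 3 exons each. The JUN genes thus share a single-exon structure, and the FOS genes share a 4-exon structure with *Atf3*. None of the 50-nt windows in the first 300 nt of their transcripts (0%) occurs in a transcript of another gene, so tags near the 5′ end can be assigned.

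Promoter sequences, the 250 bases before each RefSeq start in GRCm38.p6, matched 9 of the 10 genes (11 promoters, 3 of them of *Maff*), and *Fosl1* has no entry. They were searched on both strands for the AP-1 element TGANTCA, the CRE-type element TGACNTCA, the shorter TGACG, which lies within TGACNTCA where N is G, and the CArG box bound by SRF. TGANTCA was in none of the 11 AP-1 promoters (0) and in 6.75% of all 32851 promoters. TGACNTCA was in 27.3% of AP-1 promoters, those of *Jun* and *Maff*, and in 7.49% of all promoters. TGACG was in 54.5% of AP-1 promoters and in 17.8% of all promoters, and the CArG box was in 0% and 1.47%. Sequence farther upstream than 250 bases was not searched, so these shares do not show that a gene lacks an element. The 110 bases before the start are shown for *Fos*, *Fosb*, *Junb* and *Atf3*, which were lower by adjusted p alone, and for *Jun*, which was not, with TGACG or TGACNTCA in capitals.
Fos (chr12:85473780-85473889, plus strand): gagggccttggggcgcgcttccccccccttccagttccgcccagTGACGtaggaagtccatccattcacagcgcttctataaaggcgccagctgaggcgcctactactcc
Fosb (chr7:19310046-19310155, minus strand): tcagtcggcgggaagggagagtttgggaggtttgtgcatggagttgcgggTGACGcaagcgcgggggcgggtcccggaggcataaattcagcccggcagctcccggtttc
Junb (chr8:84978749-84978858, minus strand): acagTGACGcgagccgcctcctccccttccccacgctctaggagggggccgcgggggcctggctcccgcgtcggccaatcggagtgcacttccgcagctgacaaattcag
Atf3 (chr1:191183334-191183443, minus strand): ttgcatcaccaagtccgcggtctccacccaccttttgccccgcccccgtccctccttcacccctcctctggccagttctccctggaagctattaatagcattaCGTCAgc
Jun (chr4:95052223-95052332, minus strand): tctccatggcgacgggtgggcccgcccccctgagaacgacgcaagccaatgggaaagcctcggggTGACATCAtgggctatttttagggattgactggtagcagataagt
*Fos*, *Fosb* and *Junb* hold TGACG and *Atf3* holds its reverse complement near the start, while *Jun* holds a full TGACNTCA. *Maff*, lower by adjusted p alone, holds both TGACG and TGACNTCA, and *Jund*, lower by the same rule, holds none of these elements. So few promoters show no link between the letters and the direction of the RNA, nor its absence. A match describes these letters and shows no binding.

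Among textbook targets, TGANTCA was in 10 of 25 promoters (40%), and the 110 bases before the start are shown for *Il11*, *Mmp3*, *Mmp10* and *Mmp13*, the targets called higher with the smallest p, with TGANTCA in capitals.
Mmp3 (chr9:7445712-7445821, plus strand): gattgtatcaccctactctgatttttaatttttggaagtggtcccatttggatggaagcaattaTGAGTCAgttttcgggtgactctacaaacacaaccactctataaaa
Mmp10 (chr9:7502232-7502341, plus strand): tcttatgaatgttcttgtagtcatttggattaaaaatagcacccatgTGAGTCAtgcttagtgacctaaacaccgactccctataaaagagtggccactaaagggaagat
Mmp13 (chr9:7272404-7272513, plus strand): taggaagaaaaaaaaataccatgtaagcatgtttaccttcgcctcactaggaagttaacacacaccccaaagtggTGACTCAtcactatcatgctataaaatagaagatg
Il11 (chr7:4778142-4778251, minus strand): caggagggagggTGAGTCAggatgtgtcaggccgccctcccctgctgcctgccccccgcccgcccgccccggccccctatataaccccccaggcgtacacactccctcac
*Il11* has another RefSeq start, whose 110 bases upstream hold none of the 3 elements TGANTCA, TGACNTCA and TGACG. The promoters shown were chosen after their matches were seen, and whether the difference in RNA level has to do with them was not tested. Because the list was made of known AP-1 targets, its share of promoters with the AP-1 element TGANTCA is not independent evidence.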

How the data were processed

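5′Tag-seq libraries of polyadenylated RNA from 3 EGFP+ and 3 EGFP- sorted samples were used. After trimming (cutadapt 1.18) and mapping to RefSeq mm10 transcripts in a single orientation (Bowtie2 2.2.5), the authors deposited unnormalized tag counts for gene symbols. How multi-mapping tags and molecular identifiers were handled is not given in the sources used here.

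Testing took genes that reached 10 tags in 3 or more libraries and was done in R 4.3.3 with edgeR 4.0.16 (TMM, quasi-likelihood test, Benjamini-Hochberg adjustment over all tested genes), with the adjusted p and fold thresholds of the methods. As printed, the methods exclude genes with 10 or more tags, read here as keeping them. The filter could be met by a single group, as for *Mapk7*, *Ccnd1*, *Spp1*, *Tek*, *Cd14*, *Kit*, *Ano1*, *Actg2*, *Des*, *Cnn1* and *Notch3*. The code was tested on simulated data. Library sizes were the tags of the tested genes, which was settled after a first fit on full library totals, and that fit is kept as an alternative. Replicate numbers come from the labels. Same-numbered libraries of both groups deviated together (r of 0.23, 0.19 and 0.27 over 5063 genes whose mean reached 30 tags), so they were taken as paired where a block was used, and the methods name 3 mice. Alternatives were RLE scaling, library size only, iterative TMM, DESeq2 1.42.0, other filters, the adjusted p alone, glmTreat against a fold of 1.5, the replicate block, thinning and leaving out each library.

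The AP-1 genes and the gene lists were chosen with earlier results of these data known. Named genes were the 10 AP-1 genes, *Il11*, up to 4 called genes per direction and list with the smallest p whose groups did not overlap, and the 3 genes most like each called AP-1 gene. *Mapk3*, *Hmox1* and *Mkl1* and the genes named by adjusted p alone were added after their values were seen. The 9 ratios, the differences within replicate numbers, the motifs and the promoters shown were not planned and were chosen after values or matches were seen. The p-values of the fits set a difference against the spread between these libraries, and the fits without the block take the libraries as independent. Positions and transcripts come from GENCODE mouse release M21 and promoters from RefSeq. Figures were drawn with matplotlib 3.10.9.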

Additional observations from a re-analysis of the deposited data

How the results depend on the processing

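The calls over all genes, the calls among AP-1 genes and the 5 related gene lists, and the log2 fold changes of *Il11* and the 9 tested AP-1 genes were recomputed under 18 alternatives, 17 planned and 1 chosen after seeing the data (library totals over all symbols), and no log2 fold change of an AP-1 gene changed sign. *Atf3* was called lower in all 18 (log2 fold change -2.47 to -1.94) and *Junb* in 14 of 18 (-1.09 to -0.96). The number of AP-1 genes called lower was 4 with scaling by library size only, 1 without a filter on low counts and 6 by adjusted p alone, and 1 to 4 when a library was left out. Without IL-11- replicate 2, IL-11+ replicate 1 or IL-11+ replicate 3 it was 1, and without IL-11- replicate 3 or IL-11+ replicate 2 it was 4. The number lower by adjusted p alone was 2 with glmTreat, which tests against a higher fold, and 5 to 6 when a library was left out. Over all genes, 638 were higher by adjusted p alone, and the number lower was 256 with 10 tags required in all libraries, where fewer genes were tested, 378 with glmTreat and 341 to 579 when a library was left out (341 without IL-11- replicate 1 and 355 without IL-11- replicate 2). Among other basic leucine zipper genes 2 were called with library size only and 6 by adjusted p alone, and 1 to 2 with a library left out. Among MAP kinase genes 0 were called with library size only, DESeq2, 10 tags in all libraries, glmTreat and thinning, 2 by adjusted p alone, and 0 to 1 with a library left out. In the list with SRF, its partners and *Rps6ka3*, 1 was called without a filter, 1 by adjusted p alone, 1 with the replicate block and 0 to 1 with a library left out (1 without IL-11- replicate 3 or IL-11+ replicate 3). Of the immediate early and digestion-responsive genes 19 were called by adjusted p alone. With the replicate block, 337 genes were higher and 648 lower, the same AP-1 genes (*Junb* and *Atf3*) were called, and among the list genes named in the report only the calls of *Mkl1* and *Hmox1* changed. Scaling by library size only moved the median log2 fold change of all genes to -0.10. The cause of the other changes was not tested. Marker lists were recomputed only by adjusted p alone, with DESeq2 and with the replicate block. DESeq2 and the block each gave the same numbers of marker calls as the main fit. Ratios and counts of groups without overlap were not recomputed. With 3 libraries per group and 1022851 tags in the smallest, genes near the floor such as *Batf3* could not be compared, RNA levels say nothing of AP-1 protein, its phosphorylation or its binding, and sorted cells from a single day and DSS dose leave other times untested.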
